A study of Homo sapiens with 12 samples.

Results

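MAP2K4 is a dual-specificity kinase in the middle tier of the MAP kinase cascade, and its signal was followed here with that of related kinases in transfected 293T cells. The genes were listed as MAP2K4, its paralogues MAP2K7, MAP2K1, MAP2K2, MAP2K3 and MAP2K6, the MAP kinases MAPK8, MAPK9 and MAPK14 below them, and MAP3K1 above them. They were chosen by the MAP2K4 signal itself, which was lower with the hairpin vector only, so the values of MAP2K4 are a description and carry no test. Of these 10 genes, 7 had at least 1 probe set whose annotation gives that single symbol, with 18 such probe sets among the 54675 on the array. MAP2K7 and MAPK14 had 0 such probe sets, and the 3 probe sets of MAP2K3 each carry several symbols, so these genes were not analysed here. Of the 18 probe sets, 17 passed the filter on dim signals and were tested among 32768 in all.

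The 12 arrays were hybridised with RNA of 293T, a kidney-derived human embryonic line that carries a viral T antigen. All cultures received a plasmid with polyethylenimine, a transfection reagent, and were collected 48 hours later, so the empty vector arrays share the transfection and the reagent with the others. The groups, each of 4 arrays labelled as biological replicates, received an empty control vector, a vector for chr1.tRNA68-Gly(GCC), which is a glycine tRNA, or a vector encoding an artificial hairpin of CU1276, a small RNA that the labels derive from that tRNA. The vectors were introduced transiently, and the promoters that drive them and the share of cells that took them up are not given in the sources used here.

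In a MAP kinase cascade, a MAP3K phosphorylates a MAP2K, which phosphorylates a MAP kinase on a threonine and a tyrosine. MAP2K4 and MAP2K7 activate the JNK kinases, encoded by MAPK8 and MAPK9 among others, after stress and cytokines, and MAP2K4 can also act on p38. MAP2K3 and MAP2K6 activate p38 kinases such as MAPK14, while MAP2K1 and MAP2K2 activate ERK downstream of RAS and RAF. MAP3K1 is an upstream kinase of the JNK branch. Activity is set by phosphorylation, and the arrays measured transcript levels alone.

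The values are MAS5 signals, a probe set's brightness on a linear scale after each array was scaled to a common mean. Array medians were 75.9 to 104. GAPDH probe sets at the 3' end read above those at the 5' end, a sign of RNA quality, by a ratio of 1.33 ± 0.125, 1.36 ± 0.129 and 1.35 ± 0.223 in the empty, tRNA and hairpin vector arrays (SD, n = 4). Control RNAs that are added to samples, averaged 1726 to 1834 over 27 probe sets on arrays 1, 331 to 389 on arrays 2 and 20.0 to 26.1 on arrays 3 and 4. Each of these levels holds the 3 groups in equal numbers, and what set them is not given in the sources used here. The filter on dim signals left out probe sets below percentile 40 (geometric mean 43.3). Of 9 measured kidney development genes, 8 were above this filter, with LHX1 below it. Above it too were 4 of 4 neuronal genes known in this line, with NEFH close to it (45.6 with the empty vector). So were 4 of 5 epithelial genes, led by KRT18 (2217 with the empty vector). Against these stood 1 of 6 T cell and myeloid genes, 2 of 3 B cell genes and 1 of 2 erythroid genes above the filter. Fibroblast genes were above the filter in 4 of 5, led by the collagen gene COL1A1 (mean signal 838 with the empty vector). Their summed signal was 757 to 1313, 907 to 1144 and 843 to 1338 in the empty, tRNA and hairpin vector arrays.

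The signal of MAP2K4 was lowest with the hairpin vector and near equal with the other vectors. In its brightest probe set, 203266_s_at, the empty vector arrays 1 to 4 read 2073, 2087, 1878 and 1918. The tRNA vector arrays read 2050, 1926, 1898 and 2118, and the hairpin vector arrays read 1557, 1464, 1311 and 1346. All 4 hairpin vector arrays lay below all 8 others, whose ranges overlapped each other. Group means were 1989 ± 106, 1998 ± 104 and 1420 ± 113 with the empty, tRNA and hairpin vectors (SD, n = 4). On the log2 scale the hairpin vector differed from the empty vector by -0.49 ± 0.086 (limma standard error), a fold of 0.713. It differed from the tRNA vector by -0.50 ± 0.086, a fold of 0.710, and the tRNA vector differed from the empty vector by 0.0067 ± 0.086, a fold of 1.005. The labels do not pair arrays by number. Arrays of the same number differed between the hairpin and empty vectors by -0.41, -0.51, -0.52 and -0.51 for numbers 1 to 4. Between the hairpin and tRNA vectors they differed by -0.40, -0.40, -0.53 and -0.65. The gene was chosen on these values, so nothing is read from their sizes. Both vectors are compared with the same empty vector arrays. In the order of levels, the empty and tRNA vectors are neighbours that did not differ beyond their spread.

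The other MAP2K4 probe set, 203265_s_at, gave a difference of the same sign with more spread. The empty vector arrays read 1027, 1446, 1216 and 1194, the tRNA vector arrays 863, 1811, 1176 and 1226, and the hairpin vector arrays 699.7, 1057, 931 and 961. The hairpin vector range overlapped both others, and arrays numbered 1 were the lowest of each group. Means were 1221 ± 172, 1269 ± 395 and 912 ± 152 (SD, n = 4), which gave log2 differences of -0.43 ± 0.19 for hairpin against empty vector, 0.016 ± 0.19 for tRNA against empty vector and -0.44 ± 0.19 for hairpin against tRNA vector. At each number the hairpin vector array read lower than the empty vector array, by log2 differences of -0.55, -0.45, -0.39 and -0.31. Over the 12 arrays the log2 signals of both probe sets correlated at r = 0.477 (rho = 0.517), a description over arrays that include the groups by which the gene was chosen.

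**Figure D1:**
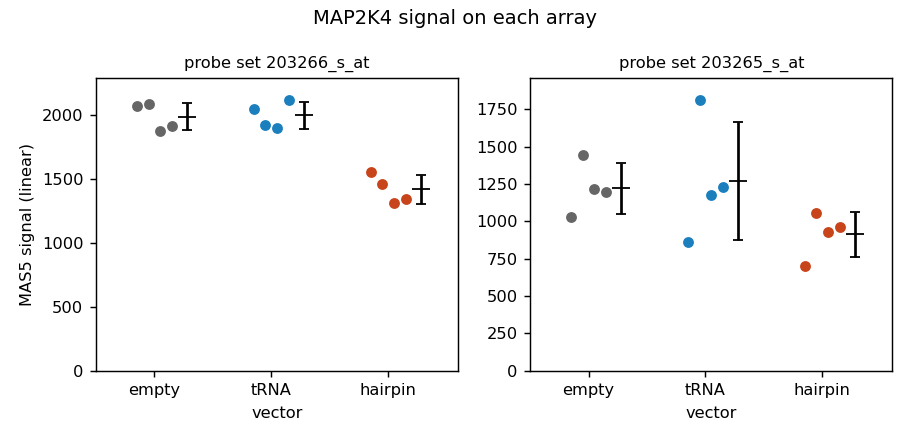
MAP2K4 signal (linear MAS5 units, vertical axis from 0) on each of the 12 arrays by vector, with 1 panel per probe set; coloured points are arrays 1 to 4 from left to right, and black bars are the group mean and SD. In 203266_s_at the hairpin vector arrays (1311 to 1557) lie below all others, and in 203265_s_at the groups overlap.

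The MAP2K4 gene on chromosome 17 also holds a microRNA gene, MIR744, on the same strand. Its mature products, printed because a lower host transcript and the microRNA can share a precursor, are given from RefSeq (build GRCh38.p14), with bases 2 to 8 from the 5′ end, the seed, in capitals. The 5p arm lies at chr17:12081909-12081930 and the 3p arm at chr17:12081966-12081987, each 22 bases long on the plus strand. Mature microRNAs were not analysed here, so whether they moved with MAP2K4 was not tested.
hsa-miR-744-5p: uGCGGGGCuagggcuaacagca
hsa-miR-744-3p: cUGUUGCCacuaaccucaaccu

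Genes beside MAP2K4 on chromosome 17 overlapped between hairpin and empty vector, as did nearly all genes tested. Over all 13952 genes, 1.22% were lower and 1.11% higher without overlap in that comparison. For tRNA against empty vector the neighbour ARHGAP44 was lower without overlap (log2 difference -0.36 ± 0.21), as were 1.69% of all genes. Of the 5 named neighbours on each side, 6 in all passed the filter on dim signals. Their log2 differences, hairpin against empty vector, were -0.021 ± 0.16 for ZNF18, which lies next to MAP2K4, -0.30 ± 0.21 for ARHGAP44, -0.071 ± 0.085 for ELAC2, a tRNA 3' end processing enzyme, -0.076 ± 0.12 for HS3ST3A1, 0.014 ± 0.098 for COX10, an enzyme of haem A synthesis, and 0.60 ± 0.41 for the dim TMEM238L (limma adjusted p = 0.9999 for each).

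The other MAP2K genes differed in sign. MAP2K2, an ERK activator, had a higher mean with both vectors than with the empty vector, MAP2K1, the other ERK activator, had a lower mean with the hairpin vector, and MAP2K6, a p38 activator, differed between the hairpin and empty vectors by less than its error. None passed limma after adjustment over all probe sets, where 0 of 32768 probe sets passed in any comparison (0% with hairpin against empty vector, 0% with tRNA against empty vector and 0% with hairpin against tRNA vector). With the level of the control RNAs as a block, limma called 3, 4 and 8 probe sets in these comparisons (0.00916%, 0.0122% and 0.0244%), and 0 of the probe sets of the kinases other than MAP2K4. The smallest adjusted p over all probe sets were 0.335, 1 and 0.236, and 867, 1238 and 1271 probe sets had an unadjusted p under 0.05.

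MAP2K2 (202424_at) read 4566, 4254, 4306 and 3426 on the empty vector arrays. It read 4964, 5550, 4823 and 4452 on the tRNA vector arrays and 4394, 5464, 5218 and 4681 on the hairpin vector arrays. Array 4 was the lowest with the empty vector, and the groups overlapped. Means were 4138 ± 494, 4947 ± 456 and 4939 ± 489 (SD, n = 4). The log2 difference from the empty vector was 0.26 ± 0.10 for the hairpin vector (95% interval 0.035 to 0.48, limma unadjusted p = 0.0263, adjusted p = 0.9999) and 0.26 ± 0.10 for the tRNA vector (0.038 to 0.48, unadjusted p = 0.0248, adjusted p = 1). Between the hairpin and tRNA vectors it was -0.0032 ± 0.10 (-0.23 to 0.22). The next probe set, 213490_s_at, had differences of 0.23 ± 0.21 and 0.063 ± 0.21 from the empty vector, and 0.17 ± 0.21 between the vectors. The last, 213487_at, was too dim to be tested, with group means of 5.54 to 10.0.

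MAP2K1 (202670_at) read 3170, 3648, 3597 and 3930 with the empty vector. It read 3651, 3422, 4004 and 3869 on the tRNA vector arrays and 3423, 3425, 3104 and 3292 on the hairpin vector arrays. The hairpin vector arrays lay inside or below the ranges of the others, and they were the closest together, with means of 3586 ± 314, 3736 ± 255.5 and 3311 ± 151 (SD, n = 4). The log2 differences were -0.11 ± 0.083 for hairpin against empty vector (95% interval -0.29 to 0.066, limma adjusted p = 0.9999), 0.061 ± 0.083 for tRNA against empty vector (-0.12 to 0.24, adjusted p = 1) and -0.17 ± 0.083 for hairpin against tRNA vector (-0.35 to 0.0055, adjusted p = 0.9997).

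MAP2K6 (205698_s_at) ranged from 545 to 863 with the empty vector, from 712 to 833 with the tRNA vector and from 648 to 783 with the hairpin vector, so the empty vector arrays spanned all hairpin vector arrays. Means were 710.5 ± 141, 790.2 ± 57.1 and 693 ± 60.9 (SD, n = 4). Its log2 differences were -0.017 ± 0.14 (95% interval -0.32 to 0.28), 0.17 ± 0.14 (-0.13 to 0.47) and -0.19 ± 0.14 (-0.49 to 0.11) in the same order of comparisons, with limma adjusted p of 0.9999, 1 and 0.9997. The dim probe set 205699_at had differences of -0.60, 0.22 and -0.82 with an error of 0.98.

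The JNK genes, whose kinases lie below MAP2K4, did not pass either. MAPK8 (226048_at), which encodes JNK1, read 659.9, 753, 736 and 705 on the empty vector arrays, 782, 678, 627 and 747 on the tRNA vector arrays, and 552, 679.6, 554 and 664 on the hairpin vector arrays. The hairpin vector array was lower than the empty vector array of the same number in 4 of 4 cases, while the group ranges overlapped. Against the tRNA vector this held in 3 of 4 cases. The labels do not pair arrays by number, so these counts are a description. Means were 713 ± 40.8, 708.5 ± 69.5 and 612 ± 68.9 (SD, n = 4). The log2 difference was -0.23 ± 0.12 for hairpin against empty vector (95% interval -0.48 to 0.027, limma adjusted p = 0.9999), -0.013 ± 0.12 for tRNA against empty vector (-0.27 to 0.24, adjusted p = 1) and -0.21 ± 0.12 for hairpin against tRNA vector (-0.46 to 0.040, adjusted p = 0.9997).

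The 4 dimmer MAPK8 probe sets did not share 1 sign. For hairpin against empty vector they gave 0.15 ± 0.19 (229664_at), 0.070 ± 0.13 (226046_at), -0.14 ± 0.48 (210671_x_at) and -0.99 ± 0.55 (210477_x_at), and for tRNA against empty vector -0.083, 0.13, -0.15 and -0.59. The last of these had a signal of 106 ± 16.3 on the empty vector arrays and 65.6 ± 46.5 on the hairpin vector arrays (SD, n = 4), the latter from 20.7 to 124. Probe sets of 1 gene can read different transcripts of it.

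MAPK9 (203218_at), which encodes JNK2, had the smallest standard error of these genes. It ranged from 3109 to 3498 with the empty vector, from 3156 to 3429 with the tRNA vector and from 2989 to 3340 with the hairpin vector, with means of 3302 ± 159, 3272 ± 129 and 3153 ± 144 (SD, n = 4). Its log2 differences were -0.066 ± 0.071 (95% interval -0.22 to 0.086), -0.013 ± 0.071 (-0.17 to 0.14) and -0.054 ± 0.071 (-0.21 to 0.099), with limma adjusted p of 0.9999, 1 and 0.9997. These intervals do not reach the MAP2K4 difference of -0.49, a value with its own error of 0.086. Nor do the hairpin against empty vector intervals of the other genes' brightest probe sets, with that of MAPK8 reaching down to -0.477. Intervals of some dimmer probe sets of MAPK8, MAP2K6 and MAP3K1 do include -0.49. The genes were chosen on that MAP2K4 value, so nothing is read from the contrast. The other MAPK9 probe sets gave 0.049 ± 0.14 (210570_x_at) and -0.034 ± 0.12 (225781_at) for hairpin against empty vector, and 0.060 and 0.17 for tRNA against empty vector.

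MAP3K1 (225927_at), the upstream kinase, ranged from 1429 to 2025, from 1467 to 2200.2 and from 1578 to 2171 with the empty, tRNA and hairpin vectors. Array 1 was the highest of each group. Means were 1698 ± 268, 1723 ± 326 and 1795 ± 259 (SD, n = 4), for log2 differences of 0.083 ± 0.15 (95% interval -0.23 to 0.39), 0.017 ± 0.15 (-0.29 to 0.33) and 0.066 ± 0.15 (-0.25 to 0.38), with limma adjusted p of 0.9999, 1 and 0.9997. The dimmer probe set 214786_at gave 0.074 ± 0.53, 0.57 ± 0.53 and -0.49 ± 0.53.

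**Figure D2:**
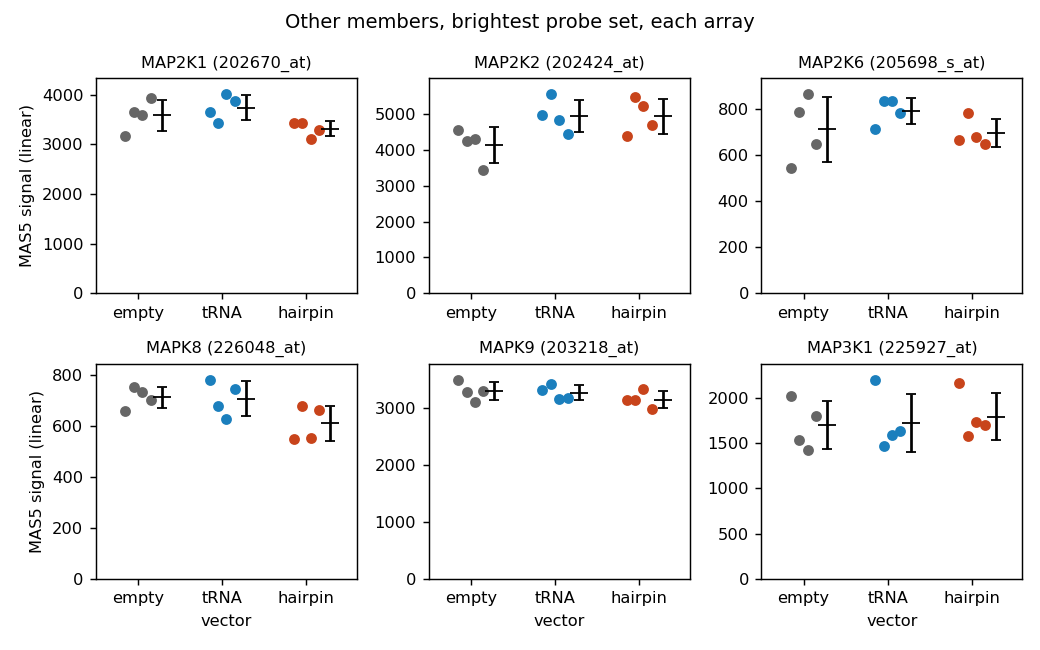
Signal (linear MAS5 units, vertical axes from 0) of the brightest probe set of MAP2K1, MAP2K2, MAP2K6, MAPK8, MAPK9 and MAP3K1 on each array by vector; points are arrays 1 to 4 from left to right and black bars the group mean and SD. The groups overlap in every panel, and MAP3K1 is highest on array 1 of each group.

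Without MAP2K4, whose values the rule used, and with each gene given by its brightest probe set, 4 of the 6 genes had a lower mean with the hairpin than with the empty vector, with a median log2 difference of -0.042. Over all 13952 genes tested, 48.8% were lower and the median was 0.0042. With the tRNA vector 2 of 6 were lower, with a median of 0.039 against 0.0030 over all genes, of which 49.3% were lower. Between the hairpin and tRNA vectors 5 of 6 were lower, with a median of -0.11 against 0.0028 over all genes, of which 49.4% were lower. These are descriptions of a short list, and nothing particular to it is read from them. Groups without overlap were found for MAP2K4 alone, lower with the hairpin vector than with the empty vector and than with the tRNA vector, and for 0 of the 7 genes in the other directions. The same was found for 1.22% of all genes as lower and 1.11% as higher with hairpin against empty vector, for 1.69% and 1.25% with tRNA against empty vector, and for 1.58% and 1.66% with hairpin against tRNA vector. The rule used the MAP2K4 values, so nothing is read from its count. Of the other 15 tested probe sets, 0 passed limma in any comparison, and 1, 1 and 0 had an unadjusted p under 0.05, in each case that of MAP2K2.

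**Figure D3:**
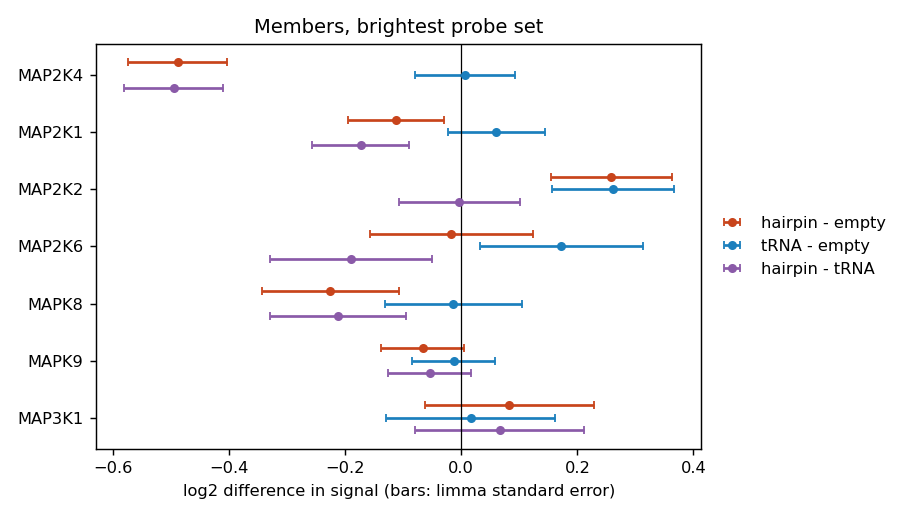
Log2 difference in signal (horizontal axis) between the 3 pairs of vectors for the brightest probe set of each gene; points are differences of group means of 4 arrays and bars 1 limma standard error on each side. MAP2K4 stands at -0.49 and -0.50 with the hairpin vector and at 0.0067 with the tRNA vector, and MAP2K2 stands at 0.26 against the empty vector with both.

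The wider cascade was described with 10 further lists, of 176 genes in all, 148 of them measured above the filter on dim signals. For hairpin against empty vector 62 of the 148 were lower and 86 higher, with a median log2 difference of 0.021. For tRNA against empty vector 70 were lower and 78 higher (median 0.016), and for hairpin against tRNA vector 67 were lower and 81 higher (median 0.013). In limma 0 of them passed after adjustment over all probe sets (adjusted p = 0.9997 to 1), and 7, 4 and 6 had an unadjusted p under 0.05. Groups without overlap were found as lower for 3 (2.03%) and as higher for 2 (1.35%) with hairpin against empty vector. The counts were 3 and 2 with tRNA against empty vector, and 4 (2.70%) and 2 with hairpin against tRNA vector. Over all 13952 genes tested, these shares were 1.22% as lower and 1.11% as higher, 1.69% and 1.25%, and 1.58% and 1.66%. Lower means were found for 48.8%, 49.3% and 49.4% of all genes, against 41.9%, 47.3% and 45.3% of the 148. Of all 32768 probe sets, 867, 1238 and 1271 had an unadjusted limma p under 0.05. That count takes every tested probe set, while the 148 genes are each given by their brightest, so the units differ. The same count over genes was not made. Nothing particular to the lists is read from these counts.

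Among upstream kinases, 12 of 16 MAP3K genes of the stress branches had a higher mean with the hairpin vector (median 0.085) and 8 of 16 with the tRNA vector (median 0.033). MAP3K3, which can feed several MAP kinase branches, read 926, 967, 916 and 811 with the empty vector and 1138, 1035, 1167 and 1039.8 with the hairpin vector. Each hairpin vector array exceeded each empty vector array, by a log2 difference of 0.28 ± 0.098 (limma adjusted p = 0.9999), and the difference with the tRNA vector was 0.16 ± 0.098. TAOK2, a kinase upstream of p38 and JNK, stood at 0.32 ± 0.14 with the hairpin vector, also without overlap, and its relative TAOK3 at 0.27 ± 0.16 with the tRNA vector. For both MAP3K3 and TAOK2, all other probe sets (1 and 2) had the same sign.

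Of 11 MAP4K and STE20 kinase genes, 4 were lower with the hairpin vector and 5 with the tRNA vector (medians 0.053 and 0.016). STK24, a STE20 kinase, read 5137, 5523, 5172 and 5764.5 with the empty vector, 5889, 5012, 5171 and 5158 on the tRNA vector arrays, and 4614, 4421, 4235 and 4256 on the hairpin vector arrays. The hairpin vector arrays lay below all others, as for MAP2K4, at a log2 difference of -0.30 ± 0.074 from the empty vector (limma unadjusted p = 0.0011, adjusted p = 0.9999). STK24 was named because its unadjusted p was the smallest of this list with the hairpin vector, so nothing is read from that p. PAK2, a kinase driven by RAC and CDC42, stood at -0.23 ± 0.11 with the hairpin and -0.084 ± 0.11 with the tRNA vector, and STK3, a Hippo kinase, at -0.22 ± 0.17 with the tRNA vector. Only 1 of the 4 other PAK2 probe sets shared its sign with each vector, and 0 of 1 for STK3, while the other STK24 probe set did.

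Among 16 adaptors, GTPases and activators, 11 were lower with the hairpin and 10 with the tRNA vector (medians -0.012 and -0.043). GADD45B, a stress-induced protein that binds the kinase MAP3K4, read 535, 521, 564 and 504 with the empty vector. It read 392, 385, 466 and 474 on the tRNA vector arrays and 434, 351.5, 353 and 436.5 on the hairpin vector arrays, so both vectors lay wholly below the empty vector, whose arrays they share as the reference. Its log2 differences were -0.44 ± 0.13 (limma adjusted p = 0.9999) and -0.31 ± 0.13 (adjusted p = 1). Of its other 2 probe sets, 2 had the same sign with the hairpin vector and 1 with the tRNA vector. GADD45A, its relative, stood at -0.084 for the hairpin and at -0.20 ± 0.081 for the tRNA vector, the latter without overlap. The GTPase RHOA stood at 0.089 ± 0.061 with the hairpin vector, a sign that its other probe set did not share.

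In the RAS, RAF and ERK branch 11 of 18 genes were higher with each vector (medians 0.023 and 0.028). Values with the smallest p were 0.75 ± 0.44 for NF1, a RAS GTPase activator, and 0.24 ± 0.14 for SOS2, a RAS exchange factor (2 of 4 other probe sets of the same sign), with the hairpin vector, and -0.21 ± 0.12 for MAP2K5, the activator of ERK5, and 1.14 ± 0.67 for the dim MAPK15 with the tRNA vector. The other JNK and p38 kinases were MAPK10, MAPK11, MAPK12 and MAPK13. MAPK10, the gene of JNK3, stood at -0.19 ± 0.24 and -0.22 ± 0.24 with the hairpin and tRNA vectors, MAPK13, a p38 kinase, at -0.27 ± 0.25 with the hairpin vector, and MAPK12, another p38 kinase, at 0.25 ± 0.14 with the tRNA vector, without overlap.

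Of 15 scaffold genes 7 were lower with the hairpin vector and 6 with the tRNA vector, with KSR2, a scaffold of RAF and MAP2K proteins, at 1.01 ± 0.54 and 1.30 ± 0.54, SPAG9, a JNK scaffold, at -0.11 ± 0.086 with the hairpin vector (2 of 4 other probe sets of the same sign) and LAMTOR2, a lysosomal adaptor, at 0.21 ± 0.10 with the tRNA vector. Of 20 MAP kinase phosphatase genes 13 and 14 were higher (medians 0.056 and 0.079). DUSP6, an ERK phosphatase, stood at 0.62 ± 0.49 and 0.75 ± 0.49, with the other probe set of opposite sign in both cases, PPP5C at 0.22 ± 0.18 with the hairpin vector and DUSP4 at 0.75 ± 0.46 with the tRNA vector. DUSP16, a JNK phosphatase, had hairpin vector arrays wholly below the empty vector arrays at a small difference (hairpin 1431 ± 39.7, empty 1521 ± 69.4, SD, n = 4, or -0.088 on the log2 scale).

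Downstream, 9 of 11 kinases that MAP kinases phosphorylate were higher with the hairpin vector and 6 with the tRNA vector (medians 0.052 and 0.015). RPS6KA4, the kinase MSK2, stood at 0.79 ± 0.31 and 0.62 ± 0.31, RPS6KA1, the kinase RSK1, at 0.24 ± 0.12 with the hairpin vector, and MAPKAPK3, a p38 substrate, at 0.15 ± 0.090 with the tRNA vector, without overlap. Of 23 transcription factors 14 and 12 were higher (medians 0.039 and 0.0079). JUN, the factor for which JNK is named, had signals of 7178 ± 1271, 6468 ± 344 and 6441 ± 1483 in the empty, tRNA and hairpin vector arrays (SD, n = 4), a log2 difference of -0.17 ± 0.17 with the hairpin vector.

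MYC, whose protein is phosphorylated by ERK, read 5723, 5266, 5723 and 6051 with the empty vector, 5930.2, 6355, 6689 and 5997 on the tRNA vector arrays, and 4086, 4836, 5251 and 5543 on the hairpin vector arrays. Its hairpin vector arrays lay below all tRNA vector arrays and overlapped the empty vector arrays, at -0.22 ± 0.092 from the empty vector (limma adjusted p = 0.9999), against 0.13 ± 0.092 for the tRNA vector. The dim ETS1 stood at 1.46 ± 0.67 with the hairpin vector and ATF7 at -0.25 ± 0.12 with the tRNA vector. Of 14 transcripts that MAP kinase signalling is known to induce, 9 were lower with each vector (medians -0.026 and -0.016). PHLDA1 stood at -0.83 ± 0.39 and ZFP36, which promotes mRNA decay, at 0.25 ± 0.16 with the hairpin vector. IER3, an immediate early gene, stood at -0.28 ± 0.11, without overlap, and MCL1, an inhibitor of apoptosis, at -0.13 ± 0.11 with the tRNA vector (2 of 4 other probe sets of the same sign).

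**Figure D4:**
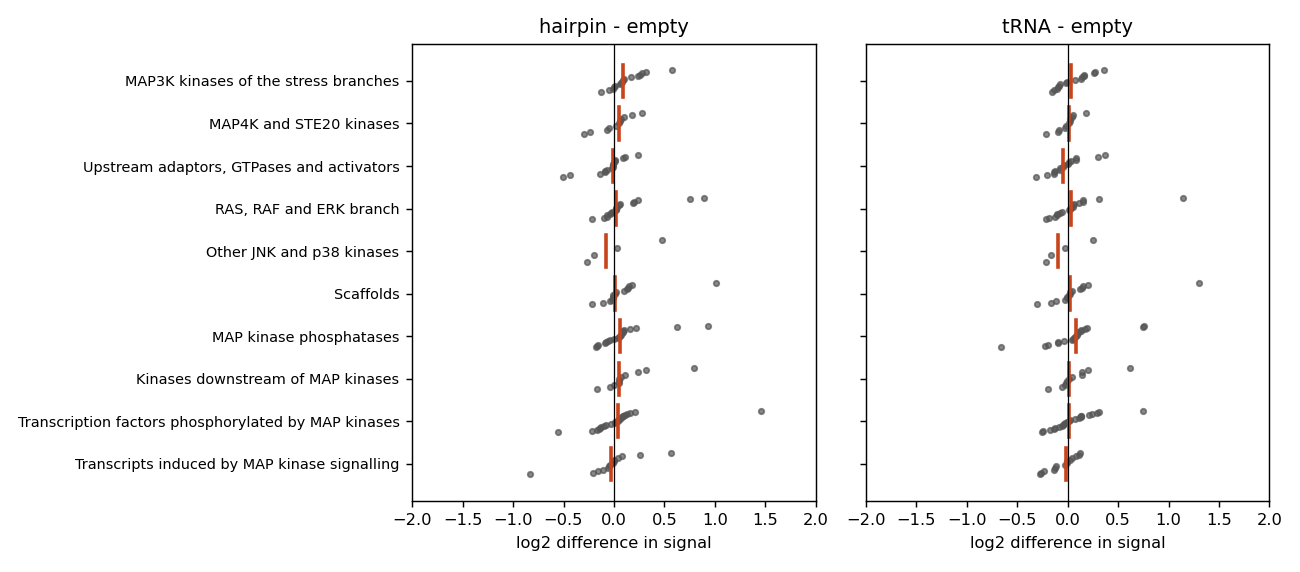
Log2 difference in signal from the empty vector (horizontal axis) for each gene of the 10 wider lists, with the hairpin vector on the left and the tRNA vector on the right; each point is 1 gene by its brightest probe set, ordered by value within its list, and orange bars are list medians. List medians lie between -0.082 and 0.085 with the hairpin vector and between -0.095 and 0.079 with the tRNA vector.

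The genes with a pattern most like that of MAP2K4, by Pearson correlation of log2 signals over the 12 arrays among 13951 other genes, were AARS1, which charges alanine tRNA (r = 0.969, rho = 0.937), MANF, a secreted protein of the endoplasmic reticulum (r = 0.898, rho = 0.699), STK24 (r = 0.895, rho = 0.664), TRIAP1, an inhibitor of apoptosis (r = 0.885, rho = 0.643), and IFI27L2 (r = 0.867, rho = 0.762). The arrays fall into a lower hairpin vector group and the rest, so r over all arrays mostly ranks how well a gene separates them, and the genes were picked for it. Within the 8 empty and tRNA vector arrays, r with MAP2K4 was 0.868 for AARS1, 0.015 for MANF, 0.167 for STK24, -0.033 for TRIAP1 and 0.212 for IFI27L2. Around the group means of all 12 arrays, r was 0.799 for AARS1, 0.024 for MANF, 0.40 for STK24, 0.347 for TRIAP1 and 0.685 for IFI27L2. AARS1 had the highest value of these 5 genes on each measure, and the arrays are those by which the genes were picked.

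The AARS1 signal was 6815 ± 349, 6914 ± 249 and 5738 ± 217 with the empty, tRNA and hairpin vectors (SD, n = 4). MANF had 4326 ± 112, 4623 ± 279 and 3462 ± 30.2, TRIAP1 had 6176 ± 346, 6192 ± 297 and 5141 ± 315, and the dimmer IFI27L2 had 317 ± 25.3, 288 ± 56.7 and 188 ± 58.8 (SD, n = 4). In each, all hairpin vector arrays lay below all others, a pattern that picking by correlation with MAP2K4 favours. Over all 13952 genes, 1.22% were lower without overlap against the empty vector and 1.58% against the tRNA vector. The share lower than both was not counted. Among the cascade's own genes, r with MAP2K4 over the 12 arrays was 0.668 for MAPK8, 0.582 for MAP2K1, 0.455 for MAPK9, 0.185 for MAP2K6, -0.014 for MAP3K1 and -0.34 for MAP2K2. That order was not kept within the 8 empty and tRNA vector arrays, where r was 0.445 for MAPK8, -0.24 for MAP2K1, 0.312 for MAPK9, -0.39 for MAP2K6, 0.447 for MAP3K1 and 0.053 for MAP2K2. Around the group means r was 0.167 for MAPK8, 0.073 for MAP2K1, 0.093 for MAPK9, -0.22 for MAP2K6, 0.480 for MAP3K1 and -0.14 for MAP2K2.

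**Figure D5:**
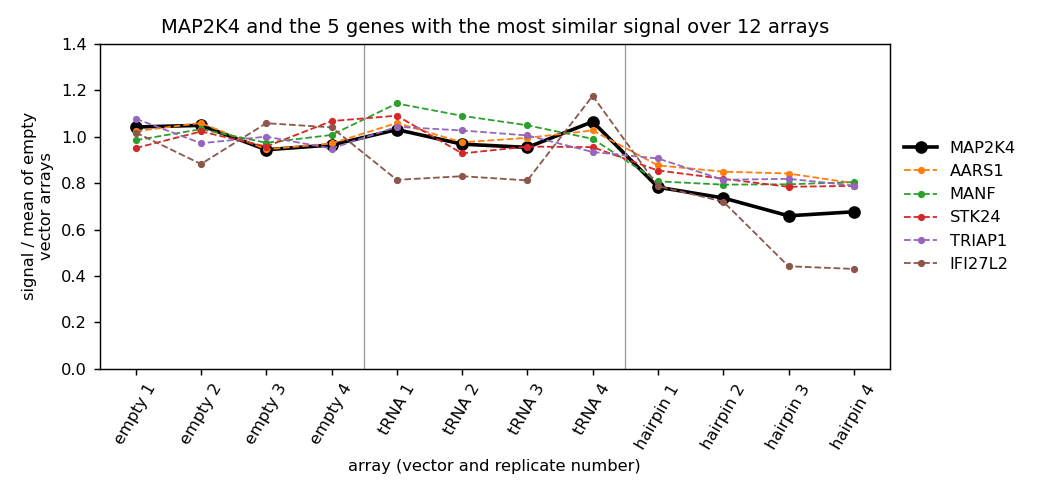
Signal on each array divided by the gene's mean over the empty vector arrays (vertical axis, linear, from 0) for MAP2K4 (black) and the 5 genes with the highest correlation with it; the 12 arrays run along the horizontal axis by vector and replicate number, and lines only join the values of a gene, since replicates have no order. All 6 genes are lowest on the hairpin vector arrays, and IFI27L2 varies most within groups.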

How the data were processed

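The values the authors deposited are linear MAS5 intensities, with a column for each array; MAS5 is named in the submitters' processing notes, and its version, the genome build and the annotation version are not given in the sources used here. Every deposited column had a 2% trimmed mean of 500.1. Gene symbols came from the platform annotation, in which 41097 probe sets had 1 symbol, 1801 several and 11777 none listed. No offset was added before log2 was taken. The 62 control probe sets and 21845 dim ones were left out, whose mean log2 value lay below percentile 40 (geometric mean 43.3), and a gene was represented by its brightest tested probe set with 1 symbol. A model of 3 group means was fitted to the 12 arrays with limma 3.58.1 in R 4.3.3 (eBayes with an intensity trend), with two-sided p adjusted by Benjamini-Hochberg over 32768 probe sets and a threshold of 0.05. It was also run on simulated data with independent noise and with larger changes than those of the listed kinases. Nothing on the present differences is read from that run. Named genes were all listed kinases, the 2 genes of each wider list with the smallest p per vector, and the 5 most correlated with MAP2K4; STK24 thus falls under both, and DUSP16, JUN and the neighbours of MAP2K4 were added after their values were seen. The members and lists were chosen with earlier results of these data known. The number of arrays limits the precision.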

Additional observations from a re-analysis of the deposited data

How the results depend on the processing

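MAP2K4 kept the sign of its difference between the hairpin vector and either other vector under all 20 alternatives, and ran from -0.53 to -0.45 against the empty vector and from -0.54 to -0.46 against the tRNA vector. It was chosen on these values, so this supports nothing further. With quantile normalization MAP2K2 stood at 0.021 between the hairpin and tRNA vectors (-0.0032 otherwise). When single arrays were left out, signs turned for differences within their own error. Against the empty vector, the hairpin vector gave -0.14 to 0.084 for MAP2K6 and -0.012 to 0.17 for MAP3K1, and the tRNA vector gave -0.063 to 0.044 for MAPK8, -0.041 to 0.015 for MAPK9 and -0.11 to 0.11 for MAP3K1. For MAP2K4 the tRNA vector gave -0.022 to 0.031 against the empty vector. MAP2K2 kept its sign against the empty vector, at 0.17 with either vector when empty vector array 4 was left out. Between the hairpin and tRNA vectors the range was -0.054 to 0.054 for MAP2K2 and -0.029 to 0.19 for MAP3K1. The cause was not tested. Samples of the same replicate number deviated together at r = 0.0987 to 0.356, over 0.1 in 11 of 12 pairs, and 9 of 12 arrays correlated best with their own number, a hint from the data and not the design. The replicate block called 6 probe sets in limma for hairpin against tRNA vector and 0 in the other comparisons. The level of the control RNAs as a block, a grouping taken from earlier results of these data, called 3, 4 and 8 probe sets with hairpin against empty, tRNA against empty and hairpin against tRNA vector. All other alternatives called 0.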
